A study of Arabidopsis thaliana with 21 samples.

Results

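Transcripts of 4 small heat shock protein genes of Arabidopsis thaliana were followed through 6 treatments of seedlings: HSP17.6C (AT1G53540), HSP22.0 (AT4G10250), HSP23.5 (AT5G51440) and HSP26.5 (AT1G52560). They were chosen by locus, with earlier results of these data known. The shares and ranks among all probe sets given below are therefore no independent test of the members. Each member was read by 1 probe set of the ATH1 array (260978_at, 255811_at, 248434_at and 262148_at in the same order). They are 4 of 13333 genes that could be assigned to at least 1 probe set. The 21 arrays came from Col-0 seedlings grown in liquid medium in the light, which were 7 days old and were exposed for 1 h. The groups received the solvent DMSO (n = 4), 5 µM of the auxin indole-3-acetic acid, IAA (n = 4), 10 µM of a compound known here only as A (n = 4), 10 µM of a compound known only as B (n = 3), or IAA at 5 µM given together with 10 µM of A (n = 3) or of B (n = 3). The labels do not give the structure of either compound.

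Small heat shock proteins are chaperones that hold unfolding proteins in a soluble state without using ATP, until the HSP70 and HSP100 machines refold them. Plants make them in nearly every compartment of the cell, and most of their genes are nearly silent in unstressed leaves and roots and are switched on by heat shock factors when proteins unfold. HSP17.6C is a class I protein of the cytosol, HSP22.0 resides in the endoplasmic reticulum (ER), and HSP23.5 and HSP26.5 are usually placed among the mitochondrial members. IAA itself acts mainly through the TIR1 receptors and the Aux/IAA repressors, a pathway of which the small heat shock proteins are not a known part.

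Values are the deposited log2 signals, so 1 unit is a doubling, and the levels of the members are not ranked against each other, since probes differ in brightness. Array medians lay between 7.17 and 7.25. The scanner header of 20 arrays named the labelled treatment, and the header of IAA 2 named compound B instead. The auxin-conjugating enzyme gene GH3.3 stood at 13.31 on IAA 2 and between 12.79 and 13.23 on the other IAA arrays, against 8.45 to 8.65 in B. It lay between 12.85 and 13.16 in IAA plus B, so it does not separate IAA from that group. The expansin gene EXPA7, which is not a member, lay between 8.27 and 8.73 on the 4 IAA arrays. In IAA plus B it lay between 6.01 and 6.20. The label was kept. No header gave a run date or station, so no batch could be tested. Of the seedling markers, the shoot gene RCA lay between 13.02 and 13.33 on all arrays, and the mean log2 signal of 5 root genes lay between 9.65 and 11.18, so both organs were represented. Whether the arrays within a group stem from independent cultures is not stated, and p-values may therefore reflect technical spread alone. Precision is limited by how few arrays there are.

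HSP17.6C, the cytosolic member, varied most in the solvent. Its log2 signal was 7.93, 4.85, 6.41 and 5.97 on the DMSO arrays 1 to 4, and 5.34, 6.80, 5.84 and 5.97 with IAA. It was 10.70, 10.69, 10.57 and 11.15 with A, and 10.52, 10.81 and 9.92 with IAA and A. All 7 arrays with A lay above all 8 arrays without a compound. With B it was 10.13, 8.40 and 8.71, and with IAA and B it was 7.75, 7.81 and 8.04. The B arrays also lay above DMSO, but DMSO 1 reached into the range of IAA plus B. By group mean the order was A, IAA plus A, B, IAA plus B, DMSO and IAA, and of these neighbours only B and IAA plus B did not overlap.

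HSP22.0, the ER member, had the smallest estimated difference of the 4 in each comparison of a compound with its control. Its signal was 8.25, 6.21, 7.07 and 7.28 in DMSO and 6.68, 7.21, 6.72 and 6.81 in IAA. With A it was 8.91, 8.62, 8.95 and 10.44, and with IAA and A it was 9.30, 9.55 and 8.48. Every array with A exceeded every array without a compound, the lowest being IAA plus A 3, not far above DMSO 1. With B the values were 9.06, 7.63 and 7.96, and with IAA and B they were 6.88, 7.25 and 7.44. The arrays of B overlapped DMSO, and those of IAA plus B overlapped both DMSO and IAA. All neighbours in the order of means, which ran A, IAA plus A, B, DMSO, IAA plus B and IAA, overlapped.

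HSP23.5, a mitochondrial member, stood at 7.97, 6.79, 7.64 and 8.36 in DMSO and at 7.45, 7.80, 7.50 and 7.49 in IAA. It reached 10.61, 10.61, 10.53 and 10.85 with A and 10.19, 10.45 and 10.29 with IAA and A. Both groups with A were tight and clear of the arrays without a compound. With B it reached 11.06, 9.73 and 9.78, and with IAA and B 9.89, 9.56 and 9.61. Here the groups with B were also clear of DMSO and IAA, and B 1 held the highest value of all 21 arrays. In the order A, IAA plus A, B, IAA plus B, DMSO and IAA, the neighbours A and IAA plus A, and IAA plus B and DMSO, did not overlap.

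HSP26.5, the other mitochondrial member, stood at 5.24, 4.50, 5.11 and 4.92 in DMSO and at 4.56, 4.60, 4.89 and 4.93 in IAA. It reached 9.28, 8.89, 8.96 and 9.64 with A, and 8.79, 8.88 and 8.38 with IAA and A. The values with B were 10.24, 8.57 and 8.94, and those with IAA and B were 7.90, 8.36 and 8.36. Each compound group lay more than 2 units above every array without a compound. The DMSO mean lay at the 20.3 percentile of all probe sets, a rough guide only since probes differ in brightness. No detection call was used here, so whether the gene was above background in DMSO is not known, and its folds are ratios of the deposited signals. The same holds for HSP17.6C, which stood at 4.85 on DMSO 2. For HSP26.5, B and A came first in the order and overlapped, and each following neighbour down to DMSO did not overlap the one above it.

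**Figure D1:**
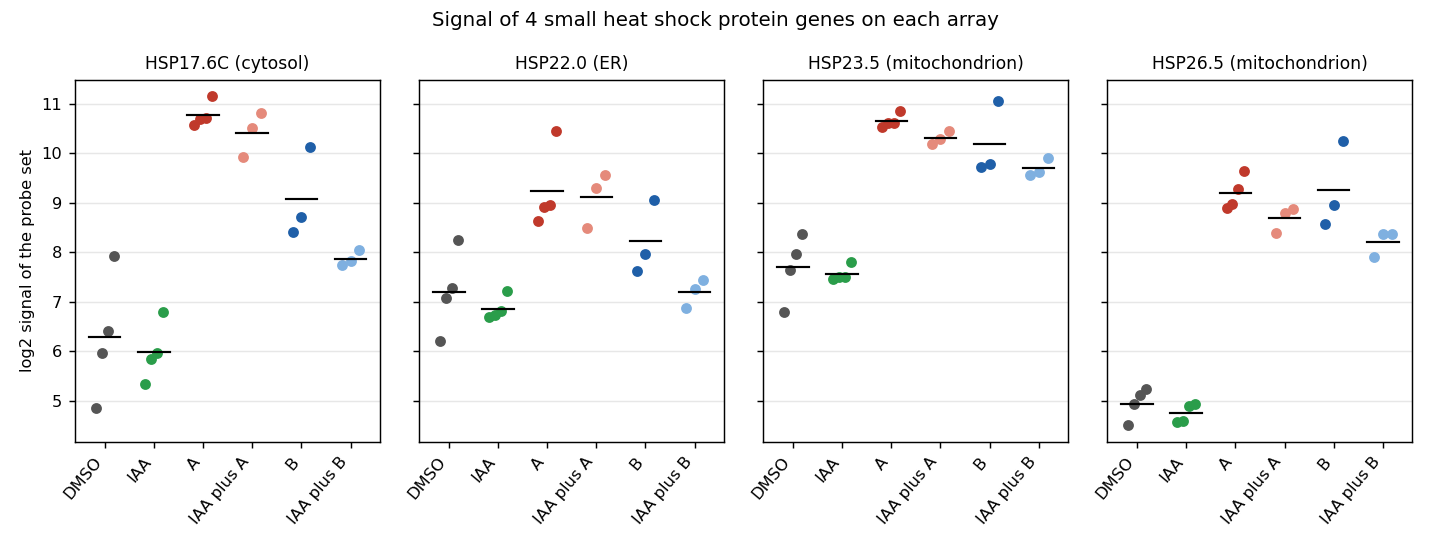
Log2 signal of each of the 4 genes (panels) on each of the 21 arrays (points) by treatment group, with the group mean as a line. Arrays with compound A or B lie above those with DMSO or IAA in HSP23.5 and HSP26.5. In HSP22.0, B overlaps DMSO, and IAA plus B overlaps both DMSO and IAA. In HSP17.6C, IAA plus B overlaps DMSO.

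The effect of each compound without added auxin was addressed by setting A and B against DMSO. Compound A raised all 4 genes past the threshold and compound B raised 3 of them past it, while the estimated rise of HSP22.0 with B missed it. With A, 4 of 4 members were higher, where 5.45% of all 22746 probe sets were called higher at a Benjamini-Hochberg adjusted p below 0.05 in limma, and the groups did not overlap for 4 of 4, where 5.43% of probe sets had all A arrays above all DMSO arrays. For HSP17.6C the rise was 4.49 ± 0.47 log2 units (SE from limma), a 22.5-fold change (limma adjusted p = 8.6e-07). For HSP26.5 it was 4.25 ± 0.26, or 19.0-fold (limma adjusted p = 3.8e-10). HSP23.5 rose by 2.96 ± 0.27, or 7.78-fold, and HSP22.0 by 2.03 ± 0.40, or 4.08-fold (limma adjusted p = 0.0022). Among all probe sets the differences of HSP17.6C, HSP26.5, HSP23.5 and HSP22.0 ranked 10, 16, 67 and 174 from the top.

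With B, 3 of 4 members were higher, where 3.99% of probe sets were, and 3 of 4 did not overlap DMSO, where 8.1% of probe sets lay wholly above it. HSP26.5 rose by 4.31 ± 0.29 log2 units, 19.8-fold, and its difference was the ninth largest (rank 9) of the array. HSP17.6C rose by 2.79 ± 0.51, or 6.92-fold (limma adjusted p = 0.000927), and HSP23.5 by 2.50 ± 0.29, or 5.65-fold. HSP22.0 had a difference of 1.01 ± 0.44 (95% interval 0.10 to 1.93), which missed the threshold (limma adjusted p = 0.181). All 4 members had an unadjusted limma p below 0.05. The comparisons of A and of B share the DMSO arrays. HSP17.6C missed the threshold against DMSO when the B and DMSO arrays were fitted alone (limma adjusted p = 0.0514).

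With IAA present, the same compounds were set against IAA alone, which uses none of the arrays above. IAA plus A was higher in 4 of 4 members, where 4.78% of probe sets were called higher and 11.7% lay wholly above IAA, as did the 4 members. HSP17.6C rose by 4.43 ± 0.51 log2 units, HSP26.5 by 3.94 ± 0.29, HSP23.5 by 2.75 ± 0.29 and HSP22.0 by 2.26 ± 0.44. IAA plus B was higher in 3 of 4 members, where 3.67% of probe sets were called higher, and 3 of 4 lay wholly above IAA, as did 11.6% of probe sets. The rise was 3.46 ± 0.29 for HSP26.5 and 2.13 ± 0.29 for HSP23.5. HSP17.6C rose by 1.88 ± 0.51, 3.69-fold (limma adjusted p = 0.024), but missed the threshold without any one of IAA 1, IAA 3, IAA 4 or the 3 arrays of IAA plus B, at adjusted p up to 0.092. HSP22.0 had a difference of 0.33 ± 0.44 (95% interval -0.58 to 1.25). Without IAA 2, the array with the conflicting header, every one of these calls against IAA was the same, and HSP17.6C stood at 4.70 with A and 2.15 with B.

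**Figure D2:**
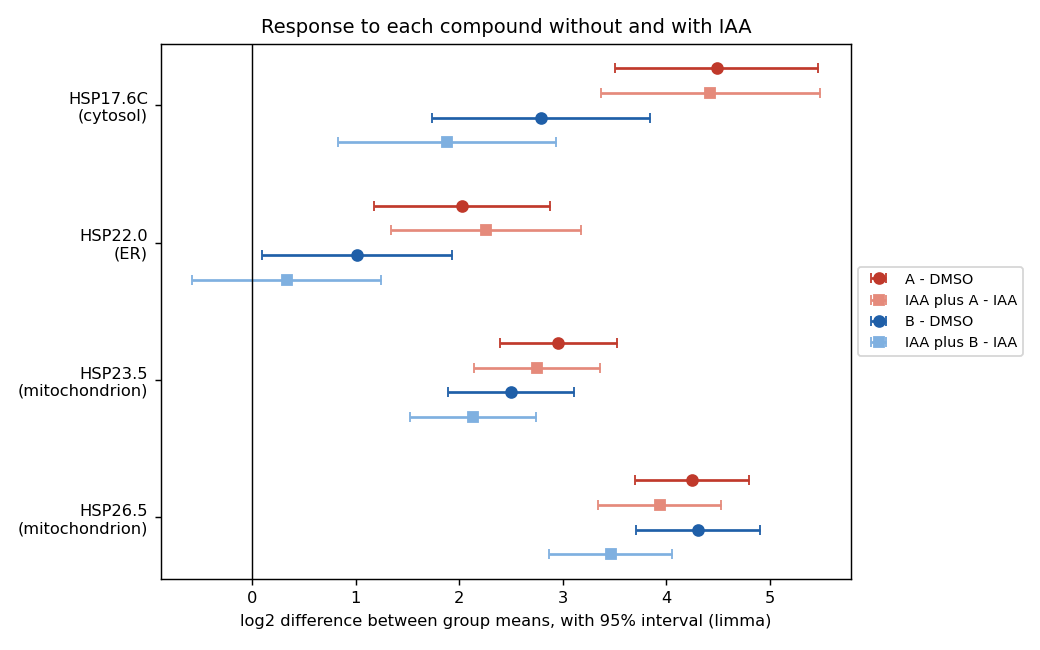
Log2 difference of each compound from its control (A or B from DMSO, IAA plus A or IAA plus B from IAA) for the 4 genes, with 95% intervals from limma. For HSP26.5 the estimates for A and B are 4.25 and 4.31 without IAA, and 3.94 and 3.46 with IAA. For HSP17.6C those for B, 2.79 and 1.88, lie below those for A, 4.49 and 4.43.

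Both compounds were given at 10 µM for 1 h, so they were compared at equal concentration and time. Whether that concentration was equally effective for both was not tested. Averaged over both auxin conditions, A exceeded B for the cytosolic and the ER gene. HSP17.6C was higher with A by 2.12 ± 0.37 log2 units, 4.35-fold (limma adjusted p = 0.000757), and HSP22.0 by 1.47 ± 0.32, 2.77-fold (limma adjusted p = 0.00461). These are 2 of 4 members, where 7.91% of probe sets were called higher. HSP23.5 had a difference of 0.54 ± 0.21 (95% interval 0.10 to 0.99, limma adjusted p = 0.0951) and HSP26.5 one of 0.21 ± 0.21 (-0.23 to 0.65, limma adjusted p = 0.546). Without B 1, HSP23.5 passed as well, at 0.76 ± 0.18 (limma adjusted p = 0.00822), and it also passed without DMSO 2.

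Split by auxin, the comparison was less certain. Without IAA, 0 of 4 members passed in limma, where 6.37% of probe sets did, and 2 of 4 had an unadjusted p below 0.05. HSP17.6C stood at 1.70 ± 0.51 (adjusted p = 0.0506 in limma) with A wholly above B, as were 8.96% of probe sets. It passed without B 1, where its difference was 2.22, and without any one of DMSO 1, DMSO 2, DMSO 4 or IAA 2, which alter the pooled spread. HSP22.0 stood at 1.02 ± 0.44, HSP23.5 at 0.46 ± 0.29 and HSP26.5 at -0.06 ± 0.29. With IAA, 2 of 4 members were higher with A, where 1.93% of probe sets were, and all 4 lay wholly above IAA plus B, as did 11.2% of probe sets. HSP17.6C was higher by 2.55 ± 0.54, 5.84-fold (limma adjusted p = 0.0121), and HSP22.0 by 1.92 ± 0.47, 3.80-fold (limma adjusted p = 0.0293). HSP17.6C lost the threshold without IAA plus A 1 or IAA plus A 2, and HSP22.0 without either of those or any array of IAA plus B, at adjusted p up to 0.159. HSP23.5 stood at 0.62 ± 0.31 and passed only when the arrays of this comparison were fitted alone (limma adjusted p = 0.0227).

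Whether the members separated A from B by unequal amounts was tested on the signal of 1 member minus that of another within each array, exchanging the labels A and B within each auxin condition (700 arrangements, exact two-sided permutation test). The A minus B difference of HSP17.6C exceeded that of HSP26.5 by 1.91 ± 0.09 (SE) log2 units and that of HSP23.5 by 1.58 ± 0.16. For HSP22.0 it exceeded that of HSP26.5 by 1.26 ± 0.16. These 3 pairs reached the smallest p the design allows (exact permutation p = 0.00143, and 0.00286 adjusted over the 6 pairs). HSP17.6C exceeded HSP22.0 by 0.65 ± 0.17, and HSP22.0 exceeded HSP23.5 by 0.93 ± 0.27 (exact permutation p = 0.01 each, 0.012 adjusted). The mitochondrial pair did not pass, HSP23.5 exceeding HSP26.5 by 0.33 ± 0.17 (exact permutation p = 0.0743). Probe sets may compress a change to different degrees, which was not tested. The B arrays also had lower root hair expansin transcripts. Of 5 measured root markers out of 8 listed, EXPA7 and EXPA18 were lower with B than with DMSO, PYK10, JAL33 and JAL34 did not pass, and 4 of the 5 were lower with IAA plus B than with IAA. The mean signal of the 5 root genes lay between 9.65 and 10.00 in B and 9.82 and 9.88 in IAA plus B, against 10.51 to 11.04 in A and 10.66 to 10.93 in IAA plus A. Without IAA that gap came mainly from EXPA7 and EXPA18, where A minus B was 2.09 and 2.25. For PYK10, JAL33 and JAL34 it was 0.07, 0.07 and 0.02. With IAA, 2 of the 5 were called higher with A, and the median difference was 0.50. The part of the root genes in the differences between A and B was not tested, and fewer cells of a type cannot be told apart from less RNA per cell.

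The other genes of heat protection were taken from a list of 79, which was also chosen with earlier results of these data known. Of these 16 could be measured, because few probe sets were paired with them. They were 6 small heat shock protein genes, 8 co-chaperone genes and 2 genes of cytosolic HSP70. None of the listed genes for heat shock factors, HSP90, HSP100, HSP60 or organelle HSP70 could be measured. With A 13 of the 16 were higher and with B 11, where 5.45% and 3.99% of all probe sets were. With IAA plus A and IAA plus B against IAA it was 13 and 11, where 4.78% and 3.67% of all probe sets were. Of the 16, 0 were lower in any of these. Their median difference from DMSO was 1.63 with A and 0.92 with B, against -0.02 and 0.01 for all probe sets. Of the 6 other small heat shock protein genes, 4 rose with both compounds: AT2G29500, listed as cytosolic class I, AT1G54050 and AT2G19310, listed as other cytosolic classes, and AT5G37670, listed as peroxisomal. AT2G29500 rose by 3.33 ± 0.34 with A and 2.95 ± 0.37 with B. AT1G54050 rose by 3.22 ± 0.23 and 2.28 ± 0.25, AT5G37670 by 3.00 ± 0.33 and 2.09 ± 0.36, and AT2G19310 by 1.91 ± 0.17 and 1.02 ± 0.18. AT4G21870 and AT5G54660 stood within 0.19 of DMSO in both.

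Among the co-chaperones, 7 of 8 measured genes were higher with A and 6 with B, where 5.45% and 3.99% of all probe sets were. Hop3, which links HSP70 to HSP90, rose by 3.31 ± 0.26 with A and 1.61 ± 0.29 with B. Fes1A, which protects cytosolic HSP70, rose by 3.31 ± 0.15 and 1.89 ± 0.16, and AT2G20560 by 2.82 ± 0.20 and 2.00 ± 0.22. Hop1 stood at 0.14 and 0.25. The measured HSP70 genes AT3G09440 and Hsp70-2 rose by 1.03 ± 0.10 and 0.77 ± 0.15 with A. With B only AT3G09440 of these passed, at 0.37 ± 0.11, and Hsp70-2 stood at 0.08 ± 0.16.

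Over both auxin conditions 11 of these 16 other heat genes were also higher with A than with B, where 7.91% of all probe sets were, and 0 were lower. Their median difference was 0.73, against -0.02 for all probe sets. Hop3 differed by 1.71 ± 0.21, Fes1A by 1.45 ± 0.12 and AT5G37670 by 1.24 ± 0.26. AT2G29500, listed in the same class as HSP17.6C, had a difference of 0.57 ± 0.27 that did not pass (limma adjusted p = 0.169). Genes of the cytosolic class I family are alike in sequence, and whether their probes read each other's transcripts was not tested.

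**Figure D3:**
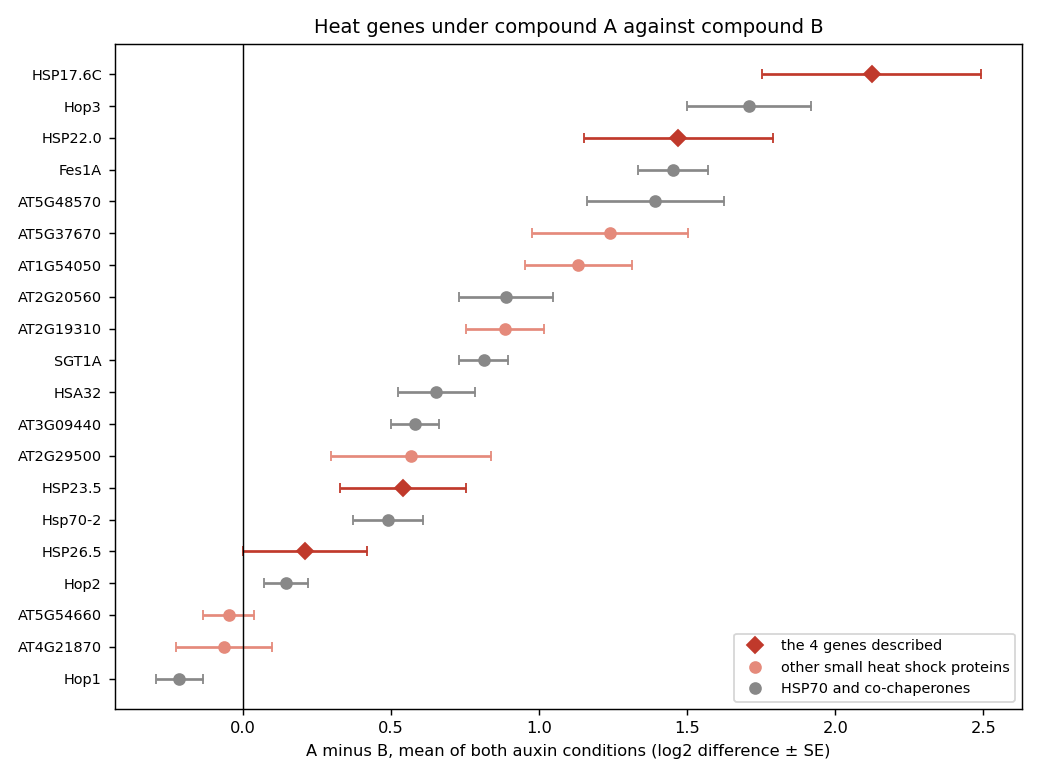
Difference between compounds A and B, averaged over both auxin conditions, with its SE, for the 4 genes (diamonds) and the 16 other measured heat genes (circles). HSP17.6C, at 2.12, and HSP22.0, at 1.47, lie near the top, while HSP23.5, at 0.54, and HSP26.5, at 0.21, lie among the small differences.

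The effect of auxin on the 4 genes was addressed in 3 comparisons that share no array. In none did a member pass in limma. IAA against DMSO gave differences from -0.35 to -0.13, with 0 of 4 past the threshold and 0 at an unadjusted p below 0.05, where 1.91% of probe sets were called. IAA plus A against A gave -0.51 to -0.12, with 0 past it and 0 at an unadjusted p below 0.05, where 0.831% were called. HSP23.5 and HSP26.5 lay wholly below A there, as did 5.06% of probe sets. IAA plus B against B gave -1.21 to -0.50, with 0 past it although 3 of 4 had an unadjusted p below 0.05, where 1.24% were called, and 3 of 4 lay wholly below B, as did 7.88% of probe sets. All 12 differences were below 0, but the sign did not hold for every one of them when single arrays were left out. Against DMSO, HSP17.6C stood at 0.24 and HSP22.0 at 0.0005 without DMSO 1, and HSP23.5 at 0.09 without DMSO 4. HSP22.0 stood at 0.29 in IAA plus A against A without A 4. In IAA plus B against B the members stayed below 0 under all 29 alternatives, the value nearest to 0 being -0.07 for HSP23.5.

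In IAA plus B against B, HSP17.6C had the lowest difference of all 22746 probe sets, -1.21 ± 0.54 (limma adjusted p = 0.547), and HSP26.5, HSP22.0 and HSP23.5 ranked 11, 16 and 207 from the bottom. These differences rest in part on B 1, and that of HSP23.5 largely so. Without that array they were -0.69 for HSP17.6C, -0.55 for HSP26.5, -0.61 for HSP22.0 and -0.07 for HSP23.5. Without B 2, HSP26.5 passed at -1.38 (limma adjusted p = 0.0278).

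The interaction, the response to IAA with a compound minus the response without it, passed for 0 of 4 members with A (0 at an unadjusted p below 0.05, 0.0484% of probe sets called) and for 0 of 4 with B in limma (1 at an unadjusted p below 0.05, 0.0132% called). The intervals were wide. For HSP17.6C the interaction was -0.06 with A (95% interval -1.50 to 1.38) and -0.91 with B (-2.40 to 0.59). For HSP26.5 it was -0.31 with A (-1.13 to 0.50) and -0.85 with B (-1.69 to -0.0021). The 2 interactions differed by 0.16 to 0.91 over the members, and 0 of 4 passed in limma (0 at an unadjusted p below 0.05), as did 0% of all probe sets.

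Single arrays stood apart for several of the 4 genes at once. DMSO 2 was the lowest DMSO array for all 4, with deviations from the group mean of -1.44 to -0.44, and DMSO 1 was the highest for 3. IAA 1 was the lowest IAA array for all 4 and IAA 2 the highest for 3. B 1 was the highest B array for all 4, by 0.84 to 1.05 above the mean, and A 4 the highest A array for all 4, by 0.20 to 1.21. B 2 was the lowest B array and IAA plus A 2 the highest of its group, also for all 4. Over all probe sets the highest of its group was B 1 in 38.8%, A 4 in 28.5%, DMSO 1 in 19.8%, IAA 2 in 25.3% and IAA plus A 2 in 40.6%. The lowest was DMSO 2 in 32.1%, IAA 1 in 30.9% and B 2 in 32.9%. Among the 16 other heat genes B 1 was the highest in 13, DMSO 2 the lowest in 11 and A 4 the highest in 9, whereas DMSO 1 was the highest in 5 and the lowest in 3. The SD of HSP17.6C was 1.27 in DMSO (n = 4), above that of 99.7% of probe sets, and 0.16 in IAA plus B (n = 3). The SDs of the 4 members in B ran from 0.75 to 0.92, where the median over probe sets was 0.11. The SEs given above pool the spread over all groups.

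**Figure D4:**
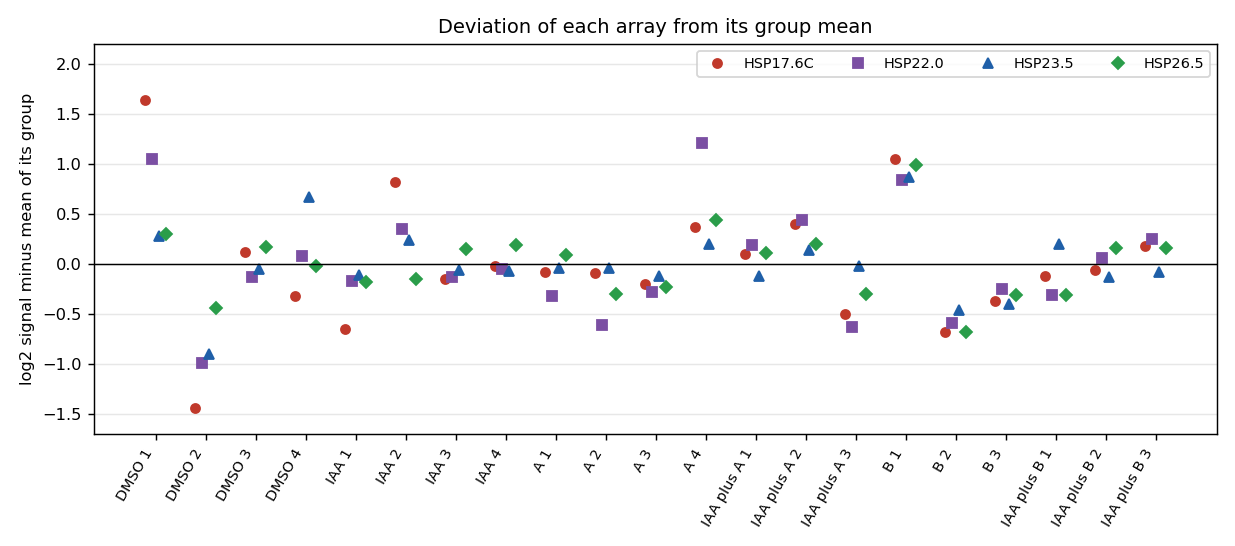
Log2 signal of the 4 genes on each array minus the mean of its group, in groups of 3 or 4 arrays. All 4 genes lie above the mean on DMSO 1, A 4, B 1 and IAA plus A 2. All 4 lie below it on DMSO 2, IAA 1, A 2, A 3, B 2, B 3 and IAA plus A 3.

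The genes most like the 4 members were sought as those with the smallest root mean square difference between profiles over the 21 arrays, each profile being centred on its own mean. Among 13509 other probe sets with 1 gene, the nearest to the mean of the members were 3 other small heat shock protein genes, AT1G54050 at 0.21 log2 units, AT2G29500 at 0.28 and AT5G37670 at 0.31. AT2G20560 at 0.43, AT1G14200 at 0.44, AT5G10695 at 0.46, AT5G48570 (ROF2) at 0.47 and Fes1A at 0.50 followed. Pairs of members lay between 0.76 for HSP23.5 and HSP26.5 and 1.38 for HSP22.0 and HSP26.5, which is not comparable with the distances to a mean of 4. Of 13512 probe sets with 1 gene that were compared, 13269 lay nearer to HSP22.0 than HSP26.5 did, and 119 lay nearer to HSP26.5 than HSP22.0 did. The profiles were not scaled, so a distance also reflects the size of a change. HSP23.5 was nearest to AT2G20560, at 0.26, followed by AT2G29500 at 0.32 and AT1G54050 at 0.35. HSP22.0 was nearest to AT1G72660, BGLU28 and AT1G30070, at 0.42 to 0.45. HSP26.5 was nearest to the calmodulin-like gene CML37, the glucosyltransferase gene UGT73B4 and AT5G07870, at 0.44 to 0.52, which rose by 4.52, 3.99 and 3.75 with A and by 4.00, 4.09 and 3.90 with B. HSP17.6C was nearest to AT1G54050, at 0.70, AT2G29500, at 0.73, and AT5G37670, at 0.74, the first 2 of which are also among the nearest to HSP23.5.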

How the data were processed

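Each array has 1 value per probe set, on a log2 scale in the table the authors deposited; the summarising and scaling of the probes are not given in the sources used here. Per the file headers, the chip type is ATH1. No further transformation was applied. Of 22810 probe sets, 64 controls were left out. GEO's platform annotation, updated through RefSeq, paired 13513 with 1 gene, 503 with several and 8730 with none. One mean per group was fitted to 21 arrays with limma 3.58.1 in R 4.3.3 (intensity trend, two-sided, Benjamini-Hochberg over 22746 probe sets, threshold 0.05). The fit was tested on simulated data. Pairs of members were compared by exact permutation. Named genes are the 4 members, up to 3 genes a list past the threshold in A or B (otherwise 1), and the nearest profiles (8 to the mean, 3 to each member); the text gives part of them. Members and lists were chosen with earlier results of these data known. Seed markers could not be measured. Alternatives are in the closing section; a scan block could not be run.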

Additional observations from a re-analysis of the deposited data

Results flagged for a closer look

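HSP23.5 on IAA 2, the array whose header names compound B, lay apart from the other IAA arrays, its gap to the nearest being 0.863 of the group's range. It was 7.80 there, against 7.45 to 7.50 on the others and 9.73 to 11.06 in B. Of 12 sets of 4 arrays so examined this was the only one past the limit, and chance flags about 1 in 20. Compounds A and B differed over both auxin conditions for HSP17.6C, by 2.12, and for HSP22.0, by 1.47. The size of the A minus B difference was unequal between members in 5 pairs. It was larger for HSP17.6C than for HSP22.0 by 0.65, than for HSP23.5 by 1.58 and than for HSP26.5 by 1.91, and larger for HSP22.0 than for HSP23.5 by 0.93 and than for HSP26.5 by 1.26.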

How the results depend on the processing

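The 4 rises with A against DMSO and with IAA plus A against IAA passed under all 29 alternatives, as did those of HSP23.5 and HSP26.5 with B and with IAA plus B, and the differences of HSP17.6C and HSP22.0 between A and B over both auxin conditions. Members passing in A against B numbered 0, but 1 with the upper 60% of probe sets, 1 with only the arrays compared, 2 with array weights, 1 when A 2, DMSO 2, DMSO 4 and IAA plus B 1 were left out, 1 when DMSO 1 and DMSO 2 were (both of these chosen after seeing the data), and 0 to 2 without single arrays. In IAA plus A against IAA plus B it was 2, but 3 with only the arrays compared and 0 to 2 without single arrays, and it was 0 to 1 without single arrays in IAA plus B against B. Of the 6 pairs of members 5 passed under quantile scaling and 5 to 6 without single arrays. With a replicate block the differences with A and B against DMSO were 4.49 and 2.79 for HSP17.6C, and no call on a member changed. Deviations of same-numbered arrays correlated over 0.1 in 15 of 48 pairs (-0.43 to 0.54 over probe sets) and not in all, so the numbers were not taken to pair arrays. Counts over all probe sets ranged from 881 to 4048 in A against DMSO (1909), 1080 to 2752 in B against DMSO (1991), 212 to 531 in IAA against DMSO (435), 1225 to 6670 in IAA plus A against IAA (2065), 1262 to 3670 in IAA plus B against IAA (1821), 133 to 683 in IAA plus A against A (189), 485 to 3310 in A against B (1448), 243 to 3518 in IAA plus A against IAA plus B (642), 2104 to 6212 in A against B over both conditions (3430), 5 to 34 in the interaction with A (11), 0 to 10 in that with B (3) and 0 to 11 in their difference (0). The cause of these shifts was not tested.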

Other observations

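Other stress responses of the compartments were measured beside the 4 genes. Of 14 listed genes of ER folding and the unfolded protein response 4 could be measured, and with A 1 was higher, the ER stress factor BZIP28, by 0.54 ± 0.08 log2 units (limma adjusted p = 3.96e-05). With B 0 passed against DMSO in limma, BZIP28 standing at -0.05 and the related factor BZIP60 at 0.34 (adjusted p = 0.0537), but BZIP60 was higher with IAA plus B than with IAA, by 0.48 ± 0.11 (limma adjusted p = 0.00586), and BZIP28 was higher with A than with B over both auxin conditions by 0.55. CRT1b and ATERDJ3B, which act in ER protein folding, differed from DMSO by at most 0.16 in either compound. Of 6 listed genes of the mitochondrial stress response 3 could be measured. NDB2, an alternative NAD(P)H dehydrogenase, rose by 1.29 ± 0.15 with A and 1.58 ± 0.16 with B. AT2G21640 rose with B against DMSO by 1.25 ± 0.26, stood at 0.02 with A, did not pass with IAA plus B against IAA (0.70, limma adjusted p = 0.121), and was lower with A than with B over both auxin conditions, at -0.94 (limma adjusted p = 0.00309). AT1G05060, the other measured gene, passed in neither comparison with DMSO and was lower with A than with B over both auxin conditions, at -0.39 (limma adjusted p = 0.0232).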
